A study of Mus musculus with 16 samples.

Results

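The 10 genes described here encode the switch that decides entry into S phase: the D-type cyclins *Ccnd1*, *Ccnd2* and *Ccnd3*, their kinases *Cdk4* and *Cdk6*, and the CDK inhibitors *Cdkn1a* (p21), *Cdkn1b* (p27), *Cdkn2a* (p16 and Arf), *Cdkn2b* (p15) and *Cdkn2c* (p18). They were chosen by symbol from the count table, and 10 of 10 were present among its 14474 genes. RNA was sequenced from an immortalized line of mouse keratinocytes without the integrin α3 subunit (MKα3−) and from MKα3+ cells, in which the null cells had been reconstituted with human α3. Both lines were grown on collagen-coated dishes in low-calcium medium and received LN332 (laminin-332, a basement membrane ligand of integrin α3β1) at 0.02 mg/mL or vehicle of PBS with glycine and sodium azide for 16 to 24 h. Each of the 4 groups had 4 replicates. Each genotype was a single immortalized line, so a difference between the lines cannot be told apart from the presence of α3, and how the cells were immortalized is not given in the sources used here. The labels do not say that replicates were separate cultures, so the p-values measure only the spread between these samples. In bulk RNA, fewer cells of a kind and less RNA per cell cannot be told apart.

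In G1, D-type cyclins bind CDK4 or CDK6, and the complexes phosphorylate the retinoblastoma protein, which then releases E2F factors that drive replication genes. The INK4 inhibitors (*Cdkn2a*, *Cdkn2b*, *Cdkn2c*) bind CDK4 and CDK6 themselves and keep cyclin D off, whereas the CIP/KIP inhibitors (*Cdkn1a*, *Cdkn1b*) bind assembled cyclin-CDK complexes. Adhesion to matrix through integrins is known to act with growth factors on cyclin D1 in many adherent cells. In keratinocytes *Cdkn1a* is a target of p53 and rises with cell cycle exit, and *Cdkn2b* is a known target of TGF-β. All values below are mRNA levels, and the activity of CDK4 and CDK6 is set largely by protein that was not measured here.

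Libraries held from 21735708 to 29338370 counts. *Itga3*, the targeted gene, had 259 ± 42.4 CPM (SD, n = 4) in MKα3− and 277 ± 46.8 CPM (SD, n = 4) in MKα3+ cells in vehicle (exact permutation p = 0.657), and since its gene-level count did not separate the lines it does not check the labels. The 8 keratinocyte markers were all present, with a summed level between 8440 and 19200 CPM per library. Of the markers of other skin cells, 4 of 6 fibroblast, 2 of 5 melanocyte, 4 of 5 leukocyte and 4 of 5 endothelial genes were also in the table. Their summed levels, given below, were at most 94.6 CPM per library, for the leukocyte genes. *Dcn*, *Lum*, *Dct*, *Tyr*, *Tyrp1*, *Cd3e* and *Emcn* of these lists were not in the table. The first principal component held 56.2% of the variance and separated the lines. For the 10 genes, the libraries numbered 1 stood apart from the others. In the libraries numbered 1 *Ccnd2* and *Cdk6* were lowest of their group in 4 of 4 groups and *Ccnd1* in 3 of 4, and *Cdkn1a*, *Cdkn2a* and *Cdkn2c* were highest in 3 of 4, so the fold changes between the lines are given with and without these libraries where the libraries bear on a result. Leaving them out was decided after seeing the data, so p-values without them describe the values and are no independent test of the lines. The share of *Rn45s*, a ribosomal repeat, was highest in replicate 1 of MKα3− and of MKα3+ cells with LN332 (1.42% and 1.06%, against 0.502% to 0.868% in the other 14 libraries), and its part in these values was not tested.

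**Figure D1:**
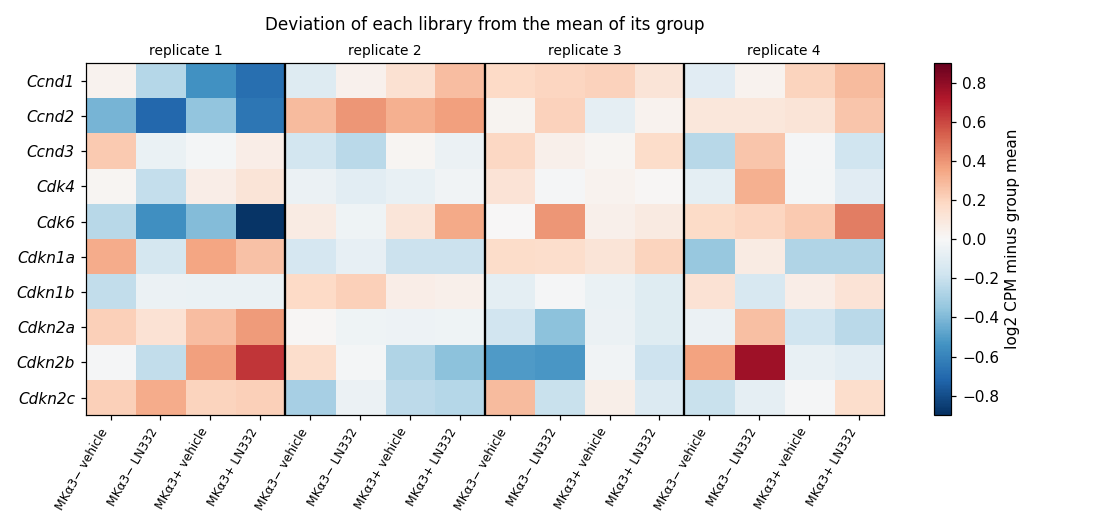
Deviation of each of the 16 libraries (columns, ordered by replicate number) from the mean log2 CPM of its group for the 10 genes (rows), red above and blue below the mean. In the replicate 1 block *Ccnd2* and *Cdk6* are blue in all 4 groups, with the deepest value for *Cdk6* in MKα3+ cells with LN332 (-0.88), while *Cdkn2a* and *Cdkn2c* are red in all 4, and the highest value of the map is *Cdkn2b* in replicate 4 of MKα3− cells with LN332 (0.76).

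Levels of different genes were set side by side only after division by the summed exon length, as CPM per kb. This length joins the exons of all annotated transcripts, such as 1172 bases from 2 for *Cdkn2a*, 3249 from 9 for *Cdk4* and 8775 from 21 for *Ccnd3*. Which transcripts the cells made was not measured, and reads were counted on other gene models, so the order depends on the annotation. On this scale *Cdkn2a* was the highest of the 10 genes in all 4 groups, from 160 ± 18.5 CPM per kb (SD, n = 4) in MKα3− cells in vehicle to 200 ± 36.7 CPM per kb (SD, n = 4) in MKα3− cells with LN332. Its range did not overlap that of the next gene in either MKα3− group, whereas in both MKα3+ groups it overlapped that of *Ccnd1*. *Ccnd1*, *Cdkn1a*, *Cdk4* and *Cdkn2b* followed, between 57.1 and 182 CPM per kb in group mean, and most neighbours among them overlapped. *Ccnd2* came next at 21.3 to 36.0 CPM per kb, then *Cdkn1b* and *Ccnd3*. At the bottom stood *Cdk6* and *Cdkn2c*, at 1.10 to 2.44 and 2.29 to 3.60 CPM per kb. In both MKα3− groups all *Cdkn2c* values lay above all *Cdk6* values, and in both MKα3+ groups the values of these genes overlapped. Per kb, the kinase mRNA of these cells was thus mainly *Cdk4* in every group. *Cdk6* nonetheless rested on 262 to 1180 counts per library.

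*Cdk6*, the D-cyclin kinase with the lower level per kb here (Entrez 12571, chr5:3341485-3531008, mm10, plus strand), was higher in MKα3+ than in MKα3− cells under both treatments. In vehicle its level was 15.2, 19.0, 18.1 and 20.3 CPM in replicates 1 to 4 of MKα3− cells. In MKα3+ cells the same numbers gave 22.7, 32.1, 30.6 and 34.9 CPM. All 4 MKα3+ libraries lay above all 4 MKα3− libraries, and the ratio within a number was between 1.495 and 1.715. The log2 fold change was 0.72 (adjusted p = 0.0383, SE 0.25, limma-voom, Benjamini-Hochberg over the whole table). The exact two-sided permutation test of the means gave p = 0.0286, the smallest that 4 libraries against 4 allow. A gene was called differentially expressed at an adjusted p under 0.05 with an absolute log2 fold change over 0.5. By this rule *Cdk6* was the only one of the 10 genes called in vehicle, where 18.5% of all genes were called (10.9% higher and 7.56% lower). *Cdk6* and *Cdk4* were the 2 of 10 with an unadjusted p under 0.05, against 39% of all genes, and the 2 of 10 whose groups did not overlap, against 32.9% of all genes. The *Cdk6* call is close to the threshold. It was lost when MKα3− vehicle replicate 1, 2 or 3 was left out (adjusted p = 0.099, 0.0614 and 0.074) and when MKα3+ vehicle replicate 2, 3 or 4 was left out (adjusted p = 0.0847, 0.0771 and 0.105), with log2 fold changes between 0.63 and 0.74 in these 6 fits.

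With LN332 *Cdk6* was again higher in MKα3+ cells. MKα3− cells had 10.2, 14.5, 19.6 and 17.0 CPM, and MKα3+ cells 17.5, 40.8, 34.0 and 44.2 CPM. Replicate 1 of MKα3+ cells fell within the MKα3− range, and the other 3 lay above it. The exact permutation test gave p = 0.0571. Within a number the ratio was between 1.72 and 2.81. The log2 fold change was 1.12 (adjusted p = 0.00332, SE 0.26, limma-voom), and it stayed called whichever of the 16 libraries was omitted, with values from 0.93 to 1.40. Without the libraries numbered 1 the log2 fold change was 0.76 in vehicle (adjusted p = 0.000515) and 1.23 in LN332 (adjusted p = 1.18e-05, limma-voom). The difference between the fold changes under the treatments, 0.40 (95% interval -0.36 to 1.16, adjusted p = 0.9999), did not pass the test. Genes within 10 Mb of *Cdk6* (31 genes) had a median log2 fold change of -0.19 in vehicle, so the region around it did not share its direction.

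The promoter of *Cdk6* is shown because this gene was called between the lines under both treatments, and that of *Cdk4* for comparison as the other D-cyclin kinase. Both are the 250 bases before the RefSeq transcript start in GRCm38.p6, in lower case, with E-boxes (CACGTG, the same on both strands) and GC boxes (GGGCGG, on either strand) in capitals.
Cdk6, chr5:3343643-3343892, plus strand: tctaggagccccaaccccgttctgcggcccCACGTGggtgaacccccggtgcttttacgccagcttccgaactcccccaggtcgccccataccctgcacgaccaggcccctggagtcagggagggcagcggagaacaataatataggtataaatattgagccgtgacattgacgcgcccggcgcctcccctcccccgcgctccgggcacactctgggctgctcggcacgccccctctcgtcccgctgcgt
Cdk4, chr10:127063285-127063534, plus strand: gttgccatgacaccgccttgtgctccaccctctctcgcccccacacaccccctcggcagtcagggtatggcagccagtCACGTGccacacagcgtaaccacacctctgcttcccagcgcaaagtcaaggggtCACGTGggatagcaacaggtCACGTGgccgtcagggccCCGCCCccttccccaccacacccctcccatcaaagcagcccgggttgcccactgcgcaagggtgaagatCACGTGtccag
The *Cdk6* window held 1 E-box and no GC box, and the *Cdk4* window held 4 E-boxes and 1 GC box. Of 32851 mouse promoter windows of this length, 6.02% held an E-box and 32.7% a GC box. RefSeq promoters were found for 8 of the 10 genes, all but *Ccnd1* and *Ccnd2*.

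*Cdk4*, the kinase with the higher level per kb (Entrez 12567, chr10:127063534-127067920, mm10, plus strand), was lower in MKα3+ cells by less than the minimum fold. In vehicle it had 310, 295, 333 and 288 CPM in MKα3− libraries and 251, 230, 246 and 237 CPM in MKα3+ cells. With LN332 the values were 306, 331, 352 and 442 CPM against 289, 261, 268 and 248 CPM. Under both treatments every MKα3+ library lay below every MKα3− library (exact permutation p = 0.0286 for each). The log2 fold changes were -0.35 (adjusted p = 0.0158, SE 0.10) in vehicle and -0.42 (adjusted p = 0.00445, SE 0.10, limma-voom) in LN332, both under the minimum fold of the call. Without the libraries numbered 1 they were -0.36 (adjusted p = 0.0185) and -0.53 (adjusted p = 0.00165), so that *Cdk4* was then called in LN332. Without that minimum *Cdk4* passed in both, where 28.4% and 32.2% of all genes passed. The region around it had the same sign, as the 126 genes within 10 Mb had a median of -0.31 in vehicle and -0.27 in LN332, which left *Cdk4* at -0.04 and -0.15 relative to them. *Tspan31*, which overlaps 19.7% of the *Cdk4* exons on the opposite strand, had a log2 fold change of -0.38 in vehicle (SE 0.13) and also in LN332 (SE 0.13). Whether reads were counted by strand is not stated, so reads from the overlap cannot be assigned to one of these genes with certainty.

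**Figure D2:**
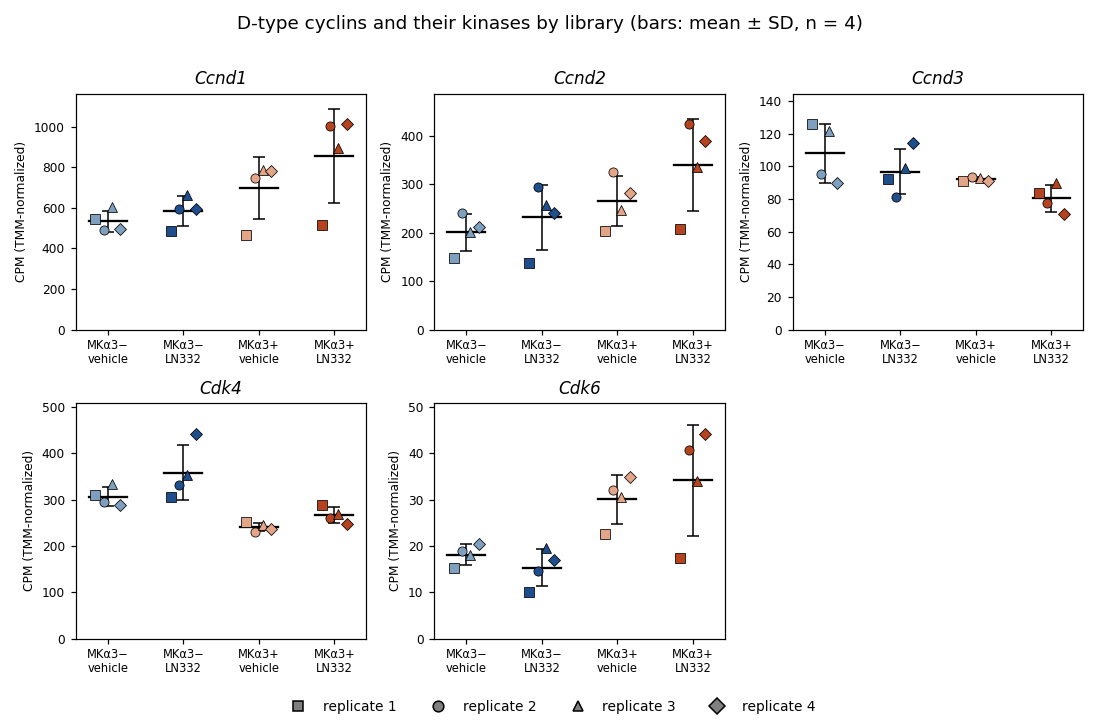
Level in CPM (y axis, TMM-normalized, linear from 0) of the 3 D-type cyclins and their 2 kinases in the 4 groups, with replicate numbers as symbols and the mean ± SD (n = 4) as lines. *Cdk6* is higher and *Cdk4* lower in every MKα3+ vehicle library than in every MKα3− vehicle library, and replicate 1 (square) is the lowest point of *Ccnd2* and *Cdk6* in each group.

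The D-type cyclins, the regulatory subunits of these kinases, were not called between the lines in the main limma-voom fit of all 16 libraries. For *Ccnd1* this depended on the libraries numbered 1 and, in LN332, also on the method. For *Ccnd2* in LN332 it depended on these libraries and on the replicate block. In vehicle *Ccnd1* (Entrez 12443, chr7:144929931-144939925, mm10, minus strand) had 546, 493, 603 and 498 CPM in MKα3− libraries and 469, 749, 789 and 782 CPM in MKα3+ cells. With LN332 it had 486, 595, 663 and 594 CPM against 518, 1004, 897 and 1012 CPM. Replicates 2 to 4 of MKα3+ cells lay above all MKα3− libraries under the same treatment, whereas replicate 1 of MKα3+ cells lay below all 4 MKα3− libraries in vehicle. The log2 fold changes were 0.36 (adjusted p = 0.188, SE 0.20) in vehicle and 0.51 (adjusted p = 0.0550, SE 0.20, limma-voom) in LN332. Without the libraries numbered 1 they were 0.55 (adjusted p = 0.000978) and 0.66 (adjusted p = 0.000223), and *Ccnd1* was then called under both treatments. This omission was added after seeing the data and takes out low *Ccnd1* values, so these smaller p-values are no independent test. Leaving out MKα3+ vehicle replicate 1 alone gave a call in vehicle (0.54, adjusted p = 0.0404) and in LN332 (adjusted p = 0.0291), and leaving out MKα3+ LN332 replicate 1 gave a call in LN332 (0.74, adjusted p = 0.00252). In LN332 *Ccnd1* was also called by edgeR's quasi-likelihood test (adjusted p = 0.0356), by DESeq2 (adjusted p = 0.0161) and with the replicate number as a block (adjusted p = 0.00755). The same held in limma-voom with at least 10 counts in every library (adjusted p = 0.0472) and with sample quality weights (adjusted p = 0.0029). *Ccnd1* shares 23.4% of its exons with *LTO1* on the opposite strand, whose log2 fold change was -0.16 under both treatments (adjusted p = 0.378 and 0.384). The part of the overlap in the *Ccnd1* count was not tested.

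*Ccnd2*, a second D-type cyclin, was numerically higher in MKα3+ cells in each of the 4 same-number pairs under both treatments. In vehicle it had 148, 241, 201 and 212 CPM in MKα3− libraries and 204, 325, 247 and 283 CPM in MKα3+ cells. With LN332 it had 136, 294, 257 and 239 CPM against 208, 423, 335 and 390 CPM. The groups overlapped under both treatments through the libraries numbered 1. The log2 fold changes, 0.40 (adjusted p = 0.227, SE 0.24) and 0.56 (adjusted p = 0.0876, SE 0.24, limma-voom), did not pass. In LN332 *Ccnd2* was called with the replicate number as a block (0.56, adjusted p = 0.00015), without MKα3+ LN332 replicate 1 (0.77, adjusted p = 0.0149) and without the libraries numbered 1 (0.54, adjusted p = 0.0042). *Ccnd3*, the third D-type cyclin, was between 70.7 and 126 CPM in all libraries and had log2 fold changes of -0.22 (adjusted p = 0.191) and -0.26 (adjusted p = 0.104), neither past the test.

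Per kb of exon, *Ccnd1* made up most of the D-type cyclin mRNA in every library. The size of each share depends on the annotated exon lengths, which were 4709 bases for *Ccnd1*, 9409 for *Ccnd2* and 8775 for *Ccnd3*. Its share was 77.1% ± 2.33 (SD, n = 4) in MKα3− and 79.0% ± 2.79 in MKα3+ cells in vehicle, and 77.8% ± 2.102 and 79.9% ± 1.57 with LN332. *Ccnd2* held 14.6% to 15.8% in group mean. *Ccnd3* held 8.34% ± 1.08 in MKα3− and 5.82% ± 1.36 in MKα3+ cells in vehicle (exact permutation p = 0.0857), and 6.99% ± 1.28 and 4.35% ± 1.67 with LN332 (exact permutation p = 0.0857). None of the 12 comparisons of shares passed the test. The summed D-type cyclin level was 147 ± 11.2 CPM per kb in MKα3− and 187 ± 36.8 CPM per kb in MKα3+ cells in vehicle, and 160 ± 22.03 and 227 ± 58.8 CPM per kb with LN332 (SD, n = 4 each), with the lowest MKα3+ library at 132 CPM per kb.

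**Figure D3:**
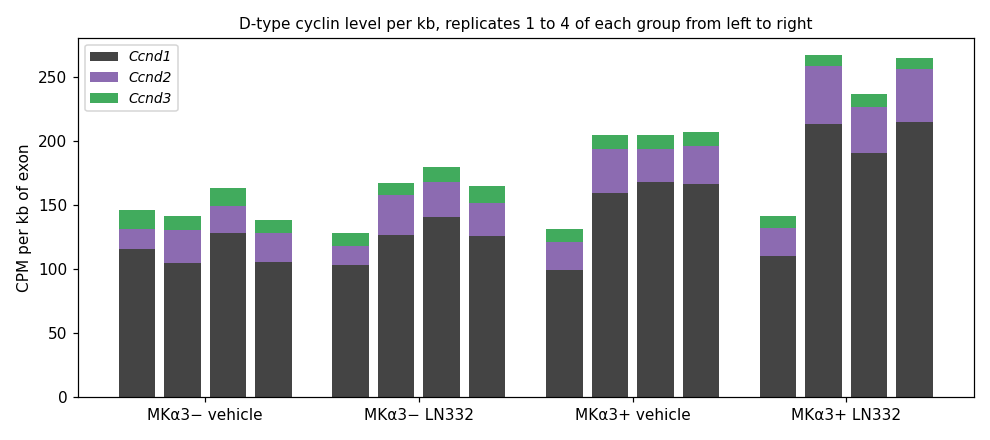
Summed D-type cyclin level (y axis, CPM per kb of exon, linear from 0) in each of the 16 libraries, divided into *Ccnd1*, *Ccnd2* and *Ccnd3*, with replicates 1 to 4 of a group from left to right. *Ccnd1* is the largest part of every bar, at 74.2% to 82.0%, and the first bar of both MKα3+ groups (132 and 142 CPM per kb) stays at the level of the MKα3− bars.

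Among the inhibitors, *Cdkn2c*, which encodes the INK4 protein p18, was lower in MKα3+ cells with LN332. Its gene (Entrez 12580) lies at chr4:109660876-109667189, mm10, minus strand. It had 11.99, 9.18, 8.29 and 8.99 CPM in MKα3− libraries and 7.07, 5.12, 5.60 and 6.82 CPM in MKα3+ cells. All 4 MKα3+ libraries lay below all 4 MKα3− libraries (exact permutation p = 0.0286). The log2 fold change was -0.64 (adjusted p = 0.0108, SE 0.18, limma-voom), and it stayed called whichever of the 16 libraries was omitted, between -0.72 and -0.53. Without the libraries numbered 1 it was -0.59 (adjusted p = 0.0205). The values rest on 126 to 309 counts per library. *Cdkn2c* and *Cdk6* were the 2 of 10 genes called in LN332, where 20.6% of all genes were called (11.7% higher and 8.92% lower). *Cdk4*, *Cdkn1b* and *Cdkn2c* were the 3 of 10 whose groups did not overlap in LN332, against 26.5% of all genes, and 8 of 10 had an unadjusted p under 0.05, against 42.5% of all genes. In vehicle the values of *Cdkn2c* were 11.1, 7.73, 11.6 and 8.26 CPM in MKα3− libraries and 8.84, 6.54, 7.99 and 7.66 CPM in MKα3+ cells. These groups overlapped, although MKα3+ was lower in each of the 4 same-number pairs, and the log2 fold change of -0.29 (adjusted p = 0.199, SE 0.17) did not pass. The difference between the fold changes under the treatments, -0.34 (95% interval -0.86 to 0.17), did not pass the test (adjusted p = 0.9999, limma-voom).

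Some markers of cell state and cell type also differed between the lines. In vehicle 0 of the 8 keratinocyte markers were called, where 18.5% of all genes were. In LN332, 2 of the 8 keratinocyte markers were lower in MKα3+ cells, against 8.92% of all genes. They were *Krt5*, a basal keratin, at 2764 ± 488 CPM against 5003 ± 1693 CPM (SD, n = 4, log2 fold change -0.80, adjusted p = 0.0117) and *Trp63*, the basal transcription factor p63, at 53.4 ± 15.4 CPM against 101 ± 36.6 CPM (-0.91, adjusted p = 0.0128, limma-voom). *Krt14*, the other basal keratin of the list, had the opposite sign and did not pass (0.30 in LN332, adjusted p = 0.308, and 0.47 in vehicle, adjusted p = 0.106). Of the other cell types, the melanocyte gene *Pmel* was lower in MKα3+ cells under both treatments (-1.26 and -0.93). *Mitf*, the other melanocyte gene in the table, had the opposite sign and did not pass (0.29 and 0.15). The leukocyte gene *Itgam* was higher in vehicle (3.09, SE 1.10, adjusted p = 0.0432, limma-voom). It was the 1 called of the 4 leukocyte genes in the table, where 18.5% of all genes were called. The summed level per library was between 11.4 and 39.4 CPM for the 4 fibroblast markers in the table, between 13.05 and 94.6 CPM for the 4 leukocyte markers, between 4.70 and 10.6 CPM for the 2 melanocyte markers and between 3.33 and 6.45 CPM for the 4 endothelial markers. The part of these in *Cdk6* or *Cdkn2c* was not tested.

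The other INK4 genes lie next to each other on chromosome 4 (*Cdkn2a* at chr4:89274471-89294653 and *Cdkn2b* at chr4:89306299-89311039, mm10, minus strand), and neither was called between the lines. The *Cdkn2a* count sums 2 products made from separate starts, Arf from the upstream and p16 from the downstream start, so these data do not tell p16 from Arf. Both start windows are shown for this reason, with GC boxes in capitals as above, followed by the upstream window of *Cdkn2c*, the INK4 gene that was called.
Cdkn2a start 1, chr4:89294620-89294869, minus strand: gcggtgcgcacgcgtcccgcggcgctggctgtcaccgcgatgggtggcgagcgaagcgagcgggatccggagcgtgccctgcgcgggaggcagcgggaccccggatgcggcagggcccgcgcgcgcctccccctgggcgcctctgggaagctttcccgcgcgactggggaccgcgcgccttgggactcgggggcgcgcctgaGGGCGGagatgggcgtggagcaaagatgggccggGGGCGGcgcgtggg
Cdkn2a start 2, chr4:89282193-89282442, minus strand: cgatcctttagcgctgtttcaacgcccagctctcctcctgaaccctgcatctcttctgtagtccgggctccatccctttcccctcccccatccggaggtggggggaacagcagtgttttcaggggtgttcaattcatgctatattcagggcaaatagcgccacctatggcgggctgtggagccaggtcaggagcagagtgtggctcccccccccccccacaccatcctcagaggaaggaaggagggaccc
Cdkn2c start 1, chr4:109666757-109667006, minus strand: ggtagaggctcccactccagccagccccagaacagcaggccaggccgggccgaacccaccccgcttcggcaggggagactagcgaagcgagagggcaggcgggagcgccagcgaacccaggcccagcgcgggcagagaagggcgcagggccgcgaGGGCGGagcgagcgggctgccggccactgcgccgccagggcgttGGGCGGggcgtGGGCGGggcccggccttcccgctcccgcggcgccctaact
The upstream *Cdkn2a* window held 2 GC boxes, the downstream window none, and the *Cdkn2c* window 3. *Cdkn2a* was between 166 and 289 CPM over all 16 libraries, with log2 fold changes between the lines of 0.11 (adjusted p = 0.628) in vehicle and -0.07 (adjusted p = 0.768) in LN332. Without the libraries numbered 1 these were 0.09 and -0.15 (adjusted p = 0.643 and 0.395). *Cdkn2b* had log2 fold changes of 0.44 (adjusted p = 0.214, SE 0.25) and 0.19 (adjusted p = 0.608, SE 0.26, limma-voom), or 0.31 and -0.10 without the libraries numbered 1 (adjusted p = 0.405 and 0.808). The 49 genes around *Cdkn2b* had a median of 0.23 under both treatments.

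The CIP/KIP inhibitors were both numerically lower in MKα3+ cells and were not called. *Cdkn1a*, the p53 target, had 445, 317, 395 and 279 CPM in MKα3− libraries and 362, 248, 307 and 235 CPM in MKα3+ cells in vehicle. With LN332 it had 415, 440, 515 and 486 CPM against 432, 314, 414 and 299 CPM. MKα3+ was the lower in 4 of 4 same-number pairs in vehicle and in 3 of 4 with LN332, but the groups overlapped, and the log2 fold changes of -0.32 (adjusted p = 0.168, SE 0.17) and -0.36 (adjusted p = 0.110, SE 0.17, limma-voom) did not pass. Without the libraries numbered 1 they were -0.32 (adjusted p = 0.118) and -0.4997 (adjusted p = 0.0205), the second just under the minimum fold. *Cdkn1b*, which restrains cyclin E-CDK2, had 89.2, 107, 91.8 and 83.9 CPM in MKα3− libraries and 72.1, 77.5, 69.7 and 81.6 CPM in MKα3+ cells with LN332. Every MKα3+ library lay below every MKα3− library (exact permutation p = 0.0286), yet the log2 fold change of -0.30 (adjusted p = 0.0257, SE 0.10, limma-voom) was under the minimum fold. In vehicle it was -0.12 (adjusted p = 0.394, SE 0.10).

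**Figure D4:**
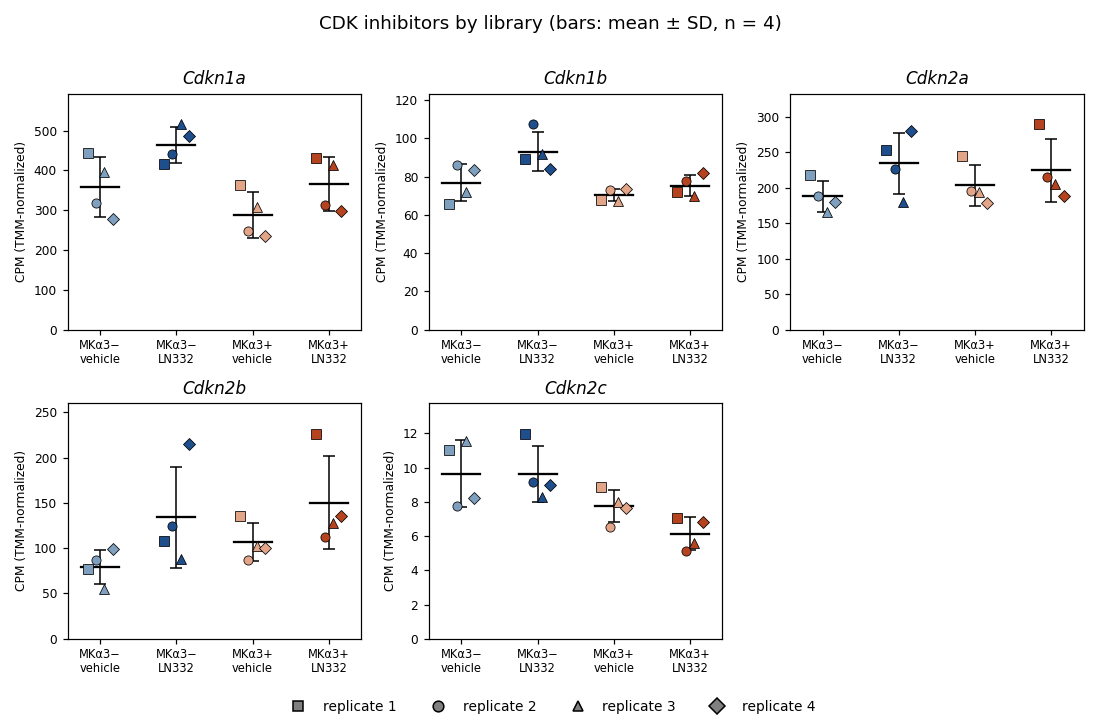
Level in CPM (y axis, TMM-normalized, linear from 0) of the 5 CDK inhibitors in the 4 groups, with replicate numbers as symbols and the mean ± SD (n = 4) as lines. *Cdkn2c* is lower in all 4 MKα3+ LN332 libraries than in any MKα3− LN332 library, and the highest *Cdkn2b* values are 215 CPM in replicate 4 of MKα3− and 227 CPM in replicate 1 of MKα3+ cells, both with LN332.

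LN332 against vehicle asks whether added ligand moved these genes within a line. None of the 10 genes was called in either line. In MKα3+ cells 0 of 10 were called where 0.187% of all genes were, and 0 of 10 had an unadjusted p under 0.05 against 9.59% of all genes (limma-voom, while edgeR and DESeq2 also called 0). These fits did not use the replicate numbers, so their p-values include the spread between numbers. With the number as a block in limma-voom, 0 of 10 were called in MKα3+ cells, where 218 of all genes were. In MKα3− cells 0 of 10 were called where 0.304% of all genes were, and 3 of 10, *Cdkn1a*, *Cdkn1b* and *Cdkn2b*, had an unadjusted p under 0.05, against 14% of all genes (edgeR and DESeq2 called 0). The groups of 0 of 10 genes were without overlap in MKα3− cells, against 4.95% of all genes. With so few genes called anywhere, these counts do not set the 10 genes apart.

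Values were also set side by side within a replicate number, although the numbers were taken as pairs in MKα3+ cells alone. *Cdkn1b*, *Cdkn2a* and *Cdkn2b* had the higher value with LN332 in 8 of 8 same-number pairs over both lines, as 7.28% of all genes did, *Cdkn1a* in 7 of 8 and *Cdkn2c* in 3 of 8. Of the activators, *Ccnd1*, *Ccnd2* and *Cdk4* had it in 7 of 8 pairs, *Cdk6* in 4 of 8 and *Ccnd3* in 1 of 8. Of all genes, 16.7% had the higher value in 7 or 8 pairs and 18.3% in 0 or 1. The pair counts of *Cdkn2c* and *Cdk6* were unlike in the 2 lines. The difference of the responses did not pass for either gene (-0.34 and 0.40, adjusted p = 0.9999 for each, limma-voom). *Cdkn2c* was higher with LN332 in 0 of 4 pairs in MKα3+ and 3 of 4 in MKα3− cells, and *Cdk6* in 3 of 4 and 1 of 4. *Cdkn2b*, the TGF-β target, had the largest log2 fold change of the 10 in both lines. In MKα3− cells it was 77.0, 86.4, 54.5 and 99.6 CPM in vehicle and 108, 125, 87.8 and 215 CPM with LN332. In MKα3+ cells it was 136, 87.4, 103 and 101 CPM in vehicle and 227, 112, 127 and 136 CPM with LN332. Within a number the ratio was between 1.41 and 2.16 in MKα3− and between 1.24 and 1.67 in MKα3+ cells, while the groups overlapped in both lines. The log2 fold changes were 0.71 (SE 0.26, unadjusted p = 0.0128, limma-voom across all genes) and 0.46 (SE 0.26, unadjusted p = 0.0910).

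Averaged over both lines, *Cdkn2b* had a log2 fold change of 0.58 (95% interval 0.20 to 0.97, adjusted p = 0.0741) and *Cdkn1a* of 0.37 (95% interval 0.12 to 0.62, adjusted p = 0.0842, limma-voom). Of the 10 genes 0 were called in this average, where 1.35% of all genes were, and 6 of 10 had an unadjusted p under 0.05, against 19.8% of all genes (limma-voom). edgeR called 0 and DESeq2 called 1, *Cdkn2b* (0.63, adjusted p = 0.0124). *Cdkn2b* was also called with the replicate number as a block (0.58, adjusted p = 0.0188), with sample quality weights (0.54, adjusted p = 0.0125) and without MKα3− LN332 replicate 3 (0.67, adjusted p = 0.0343). *Cdkn1b* had a log2 fold change of 0.19 (adjusted p = 0.141, SE 0.07) and *Cdk4* of 0.18 (adjusted p = 0.165, SE 0.07). *Ccnd3*, with -0.18 (SE 0.08, unadjusted p = 0.0495 in the same fit), went the other way, and in MKα3+ cells its 4 LN332 libraries (83.5, 77.3, 89.8 and 70.7 CPM) all lay below the 4 vehicle libraries (90.7, 93.1, 92.9 and 91.1 CPM). This separation had an exact permutation p of 0.0286 in a test that did not use the pairs, and 9.66% of all genes showed no overlap in that comparison.

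Whether the response to LN332 differed between the lines was tested for each gene as a difference of the responses. The differences were between -0.34 for *Cdkn2c* and 0.40 for *Cdk6*, with adjusted p = 0.9999 for each of the 10 in limma-voom. Of the 10 genes 0 were called and 0 had an unadjusted p under 0.05, of all genes 0% were called (1.13% had an unadjusted p under 0.05), and edgeR and DESeq2 called 0. For *Cdkn2b* the 95% interval of the difference was -1.01 to 0.51, so differences of such a size in either direction stay within the error of 4 libraries a group.

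**Figure D5:**
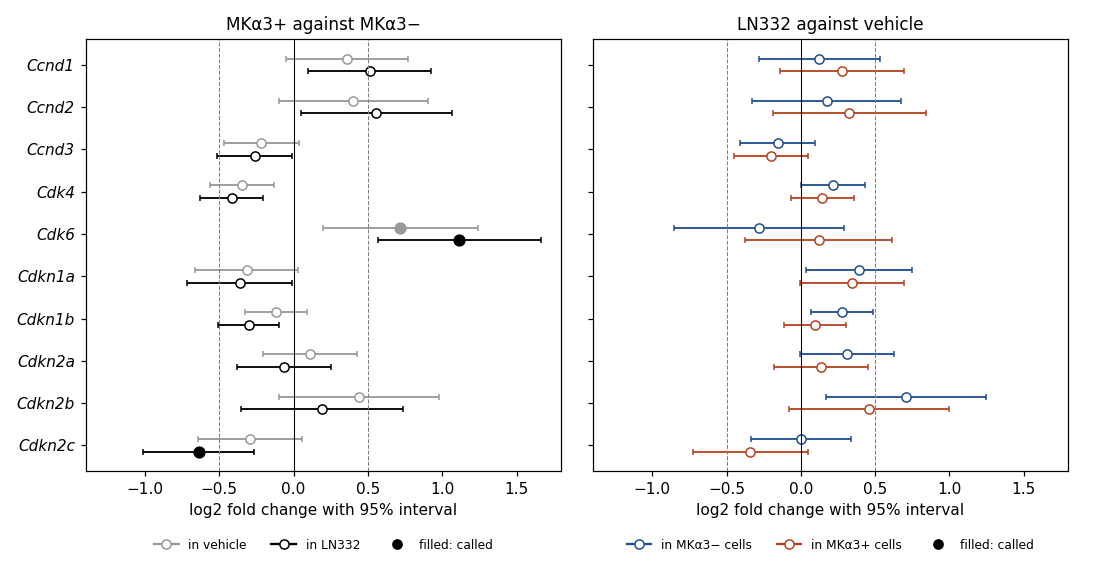
Log2 fold change with its 95% interval (x axis) of each of the 10 genes, for MKα3+ against MKα3− (left, grey in vehicle and black in LN332) and for LN332 against vehicle (right, blue in MKα3− and red-brown in MKα3+ cells), with dashed lines at the minimum fold of 0.5 and filled points where called. The filled points are *Cdk6* in vehicle (0.72) and in LN332 (1.12) and *Cdkn2c* in LN332 (-0.64), and no point of the right panel is filled.

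Of 30 listed partners of these genes in the G1/S step, 1 was called higher and 2 lower in MKα3+ cells in vehicle, where 10.9% of all genes were called higher and 7.56% lower. In LN332 2 were higher and 2 lower, where 11.7% and 8.92% of all genes were, with list medians of 0.01 and 0.02 against 0.01 for all genes under both treatments. *Cdkn1c*, the third CIP/KIP inhibitor (p57), had the largest log2 fold change of the called partners. It was between 6.04 and 9.83 CPM in MKα3− libraries and between 0.255 and 0.481 CPM in MKα3+ cells in vehicle, which is 175 to 280 against 7 to 13 counts. Its log2 fold changes were -4.19 (adjusted p = 2.19e-07, SE 0.37) in vehicle and -3.66 (adjusted p = 2.7e-07, SE 0.33, limma-voom) in LN332. *E2f2*, an activating E2F, was lower (-1.44 and -1.07), and *E2f6*, a repressive E2F, was higher (1.10 and 1.21), with 25.95 ± 2.47 CPM in MKα3− libraries and 55.4 ± 1.04 CPM in MKα3+ cells in vehicle (SD, n = 4). *Ccne2*, a cyclin that activates CDK2, was higher in LN332 (0.68, adjusted p = 0.0135). With LN332 averaged over both lines, *Myc*, a growth-promoting transcription factor, was the 1 of 30 partners called (0.52, adjusted p = 0.00943, SE 0.10), where 1.35% of all genes were.

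Genes downstream were described by 2 further lists. Of 20 E2F targets of DNA replication, 0 were called in vehicle, where 18.5% of all genes were. At an adjusted p under 0.05 with no minimum fold, 2 were higher and 4 lower in vehicle, and 2 and 4 in LN332. Of all genes, 28.4% and 32.2% passed this in either direction. In LN332, where 20.6% of all genes were called, 2 of the 20 were called, of which *Rrm1*, a subunit of ribonucleotide reductase, was higher (0.52, adjusted p = 0.0011) and *Tyms*, thymidylate synthase, lower (-0.58, adjusted p = 0.000125). The list medians were -0.10 in vehicle and 0.03 in LN332. Of 20 genes of p53 and its targets other than *Cdkn1a*, 1 was higher and 4 were lower in MKα3+ cells in vehicle, where 10.9% of all genes were called higher and 7.56% lower. The list median was -0.23, against 0.01 for all genes. The 4 were *Pmaip1* (-1.02), which encodes the death factor Noxa, *Phlda3* (-0.75), an inhibitor of AKT, *Mdm2* (-0.72), the ubiquitin ligase of p53, and *Perp* (-0.70), a desmosome protein of epidermis. *Eda2r*, a receptor for ectodysplasin A2, was the 1 that was higher (1.56, adjusted p = 4.92e-06). In LN332 2 were higher and 5 lower with a median of -0.29, where 11.7% and 8.92% of all genes were. Among them was *Plk2* (0.56), a polo-like kinase. *Plk2* was also the 1 of the 20 called with LN332 within MKα3+ cells (0.57, adjusted p = 0.0472), where 0.187% of all genes were. *Cdkn1a* itself had the sign of the 4 lower genes but did not pass the test. *Sesn2*, a stress-induced sestrin, was the 1 of the 20 called with LN332 averaged over both lines (0.55, adjusted p = 0.0422), where 1.35% of all genes were.

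Over the 16 libraries, the genes whose centred log2 CPM was most like that of *Cdk6* were *Cbl*, *Slc12a2* and *Ago2*, with root mean square differences of 0.169, 0.189 and 0.199 among 11801 genes whose log2 CPM averaged 1 or more. For *Cdkn2c* they were *Tmem179b*, *Il10rb* and *Mrps36*, with 0.127, 0.161 and 0.161. The spread of the genes themselves over the libraries, as an SD, was 0.60 for *Cdk6* and 0.34 for *Cdkn2c* on the same scale. The likeness includes the difference between the lines and the deviations of the libraries numbered 1, which were low for *Cdk6* and high for *Cdkn2c*.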

How the data were processed

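RNA was enriched for poly(A), libraries were made with the NEBNext Ultra II RNA kit and sequenced on a NovaSeq X Plus. Reads were demultiplexed with bcl2fastq 2.20 per the submitters' processing notes. The authors used Rsubread for alignment to mm10 and featureCounts with built-in Entrez gene models for counting, and deposited raw counts of 14474 genes in 16 libraries, without normalization. The study's low-count filter (CPM above 0.5 in 3 or more libraries) removed 0 genes. Whether reads were counted by strand is not given in the sources used here. No 2 replicates agreed within sampling noise (smallest chi-square per degree of freedom 5.43).

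From the counts, TMM factors (edgeR 4.0.16), voom weights and empirical Bayes statistics (limma 3.58.1, R 4.3.3) were computed in 1 fit of all 16 libraries with a coefficient per group, and p-values were adjusted over all genes by Benjamini-Hochberg. The call was an adjusted p under 0.05 with an absolute log2 fold change over 0.5. CPM values are TMM-normalized. Exact permutation tests compared mean CPM or shares of 4 libraries against 4, two-sided (scipy 1.17.1), and 0.0286 is their smallest p. Exon lengths, positions and overlaps came from GENCODE on GRCm38, and promoters from RefSeq GRCm38.p6, the build of mm10. The window for neighbouring genes was 20 Mb wide.

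The members, the 3 gene lists and the markers were chosen with earlier results of these data known. Named were all 10 members, *Itga3*, up to 3 called genes of each list in each direction with the largest fold change, and for each member called between the lines the 3 genes of most similar pattern. Markers are named outside this rule.

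Same-numbered libraries deviated together in MKα3+ cells between LN332 and vehicle (r over genes between 0.202 and 0.62 in the 4 pairs), so the numbers were taken as pairs there. In the other comparisons at least 1 pair was under 0.1. Only the block fit and the same-number values used the numbers. The main fit and the exact permutation tests did not, also within MKα3+ cells, so their p-values are unpaired. The limma-voom fit was tested on simulated counts for the lines in vehicle. With an absolute log2 fold change of 1 in 200 genes it called 143 (71.5%) and made 7 false calls. With no change simulated it made 0 false calls. Smaller changes were not simulated. Other settings tried were DESeq2 1.42.0, edgeR's quasi-likelihood test, scaling by DESeq2 size factors or by library size alone, no filter, at least 10 counts in every library, sample quality weights, a replicate block, fits of just the groups compared, other minimum folds, subtraction of the regional median, each library left out, and the libraries numbered 1 left out together, which was added after seeing the data.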

Additional observations from a re-analysis of the deposited data

Results flagged for a closer look

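Of 52 groups of 4 libraries tested for a value far from the others, 2 held one, where chance gives about 1 in 20, or 2.6. Both were replicate 1 of MKα3+ cells in vehicle. *Ccnd1* was at 468.5 CPM there and between 749.1 and 788.7 CPM in the other 3 libraries of the group. *Ccnd3* held 7.858% of the D-type cyclin level per kb there and 5.026% to 5.198% in the others, a share that moves with *Ccnd1* by construction. Reads of the ribosomal repeat gene *Rn45s* made up 0.652% of this library's counts and 0.502% to 0.529% of the others. Their part in the *Ccnd1* value was not tested.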

How the results depend on the processing

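Between the lines in vehicle, 1 of the 10 genes was called, 0 with a minimum log2 fold change of 1, 2 with no minimum, 2 without the libraries numbered 1, and 0 to 2 when each library was left out. Of all 14474 genes, 2676 were called, 1362 with the minimum of 1, 4115 with no minimum and 2718 without the libraries numbered 1. In LN332, 2 were called, 1 with a minimum of 1, 4 with no minimum, 3 by edgeR and 3 by DESeq2 (*Ccnd1* added), 4 with the replicate block (*Ccnd1* and *Ccnd2* added), 5 without the libraries numbered 1 (*Ccnd1*, *Ccnd2* and *Cdk4* added), and 2 to 4 when each library was left out. The counts over all genes in LN332 moved too. They were 2987, 1345 with the minimum of 1, 4654 with no minimum, 3047 by edgeR and 3170 by DESeq2. With the replicate block 3393 were called, and 3333 without the libraries numbered 1. *Ccnd1* was also added with at least 10 counts in every library and with sample quality weights. With LN332 averaged over both lines, 0 were called, 1 by DESeq2, with the replicate block or with sample quality weights, and 0 to 1 when each library was left out. Of all genes, 196 were called in this average, 272 by DESeq2, 363 with the replicate block and 464 with sample quality weights. A minimum fold acts on the call by construction, and the cause of the other moves was not tested. The block changed no other count of the 10 genes. For LN332 within MKα3+ cells, where the numbers pair the samples, the block left 0 of the 10 called and raised the count over all genes from 27 to 218. Within MKα3− cells it raised that count from 44 to 259, over both lines from 196 to 363. DESeq2 called 121, 165 and 272 genes in these 3 comparisons, and edgeR 4, 47 and 197. Over all pairs of groups, same-numbered libraries had a mean r of 0.255 over genes and 13 of 16 libraries correlated best with their own number. Of 1600 fold changes of single genes under the alternatives, 1576 kept their call, 18 gained and 6 lost it, 0 reversed, and 34 changed sign where called in neither. The 6 lost calls are those of *Cdk6* in vehicle. Shares of the D-type cyclins with 3 libraries in a group cannot pass the exact test (smallest p 0.0571), so their leave-one-out fits say nothing of stability. With a regional median subtracted, the test's p was kept and only the fold change moved. Fits of just the groups compared do not apply to the average or the difference of the responses. Depth limits the genes with few counts, such as *Cdkn2c* (126 to 327 counts) among the 10 and, in MKα3+ vehicle libraries, *Cdkn1c* (7 to 13) and *E2f2* (20 to 33) among the partners.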
